A study of Mus musculus with 6 samples.

Results

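The genes described here are 10 genes of the hypoxia response and of glycolysis, out of 33084 genes in the count table: Hif1a, Hif1an, Egln3, Vegfa, Adm, Ldha, Pgk1, Pdk1, Bnip3 and P4ha1. They were chosen by name as parts or targets of the hypoxia-inducible factor (HIF) pathway, and 2 of them, Hif1an and Adm, were picked for their pattern in these counts. That pattern is not spelled out and is taken here to include the difference between genotypes, so for these 2 genes the difference is described and not tested. RNA came from microdissected forebrains of mouse embryos collected at 15.5 days of gestation, 3 with the genotype Dyrk1a<DlxCre/+> (mutants below) and 3 wt, with 1 library from each. In the mutants Dyrk1a, a protein kinase gene, is conditionally inactivated in the Dlx5 domain, the territory of ventral forebrain cells that become GABAergic neurons. The label carries a + allele, and cells outside that domain keep the gene, so the bulk libraries mix both kinds of cell. The sources do not say whether wt embryos carried the Cre driver or a conditional allele.

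HIF is a transcription factor made of an oxygen-regulated subunit, such as HIF1A, and a stable partner, ARNT. When oxygen is plentiful, the EGLN enzymes hydroxylate prolines of HIF1A, which the VHL ubiquitin ligase then recognises, and HIF1AN hydroxylates an asparagine that blocks binding of the coactivators CREBBP and EP300. When oxygen is low these hydroxylations slow, HIF1A accumulates and its target genes are induced. The targets include genes of vessel growth, glucose uptake, glycolysis and mitochondrial turnover. Much of the control of HIF1A acts on the protein, which RNA counts do not measure.

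HIF binds the letters ACGTG or GCGTG on either strand, so the promoters of the 10 genes were searched for them, from 250 bases before to 50 bases after each start site in RefSeq (GRCm38.p6). ACGTG and its reverse complement CACGT overlap where the letters read CACGTG, and such a site was counted on both strands. A match was found for 9 of the 10 genes and, counted by window since some genes have several start sites, in 10 of their 13 windows (76.9%), against 43.8% of all 32851 promoter windows of the same length. The genes were chosen as parts or targets of the HIF pathway, and the windows were not matched for base content. The contrast of shares is therefore a description and no support for HIF control. The Hif1an window held no match, and the Ldha window with its start at the more upstream RefSeq site held 7. Vegfa and Pdk1 each had a window with a match and a window without. For Vegfa the window at the more upstream start (chr17:46032328-46032627) held none, and its 2 matches lay in the window at the start further downstream. The sequences below show the match nearest upstream of the start for Ldha, Pgk1 and P4ha1, the 3 genes that lay furthest above the other libraries in replicate 3 (described below), and for Adm. Capitals mark the match, the sequences read 5′ to 3′ on the strand of the gene, and each stands on GRCm38.p6.
Ldha, chr7:46845759-46845785 (+), 34 bases upstream of the start: gtgggttcccgCACGTccgctgggctc
Pgk1, chrX:106186958-106186984 (+), 131 bases upstream: aatggaagtagCACGTctcactagtct
P4ha1, chr10:59323269-59323295 (+), 16 bases upstream: gtgacagagcgCACGTagcgagggctg
Adm, chr7:110627592-110627618 (+), 54 bases upstream: gcaaatctgacCACGCccaccgtccgc
These letters are a description of the sequence and do not show that HIF was bound there.

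The libraries held 25360030 to 28339650 counts in mutants and 24646616 to 38315004 in wt. CPM values (library-scaled counts) below are scaled between libraries by TMM. Dyrk1a itself stood at 186, 159 and 182 CPM in mutant replicates 1, 2 and 3, against 169, 183 and 180.2 CPM in wt (two-sided exact permutation test over 20 assignments, p = 0.90, where 0.10 is the smallest p possible). The count covers the whole gene and so does not check the deletion. Gad2, a marker of the GABAergic neurons of the forebrain, was present at 110.2 CPM or more in all 6 libraries. In the comparison of genotypes 0 of 19616 tested genes (0%) passed an adjusted p of 0.05 (edgeR, quasi-likelihood F test, Benjamini-Hochberg), with 376 at an unadjusted p under 0.05. DESeq2 also called 0, with 261 unadjusted, and limma-voom with sample weights called 0, with 1909. If no gene differed, an exact test would give more genes an unadjusted p under 0.05 than the 376 of edgeR. The edgeR test was therefore conservative here. The replicate 3 libraries of both genotypes stood apart from the other 4 on the first principal component, which held 37.4% of the variance. The summed level of 10 proliferating cell markers was 1838 CPM in mutant replicate 3 and 1750.3 CPM in wt replicate 3, and lay between 1007 and 1113 CPM in the other 4 libraries. For the genes among the 10 in which replicate 3 was highest in both genotypes, the difference between libraries of the same number is therefore given as well. No label says that a shared number marks a pair, so these differences only describe the libraries.

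Within the forebrain the 10 genes spanned a wide range of levels. Per kilobase of exon, Ldha, the lactate dehydrogenase subunit that turns pyruvate into lactate, was highest, with 56.1 ± 7.38 CPM per kilobase in mutants and 58.1 ± 12.5 in wt (SD, n = 3 each). Hif1a followed at 29.6 ± 4.15 in mutants and 29.2 ± 0.888 in wt, and Pgk1, which makes ATP in glycolysis, at 26.7 ± 4.83 and 26.9 ± 5.19. Next came Hif1an, at 15.3 ± 0.730 in mutants and 17.9 ± 0.670 in wt, and then Vegfa, the main vessel growth factor, at 12.2 ± 0.675 and 11.9 ± 0.907. P4ha1 stood at 9.56 ± 1.37 in mutants and 9.24 ± 1.85 in wt, Bnip3 at 8.65 ± 0.661 and 8.62 ± 0.332, and Pdk1 at 5.76 ± 0.330 and 5.97 ± 0.146. Egln3 and Adm were the scarcest: Egln3 had 1.64 ± 0.101 in mutants and 1.55 ± 0.170 in wt, and Adm 0.717 ± 0.0188 in mutants and 0.461 ± 0.0753 in wt. The ranges over the 6 libraries overlapped between Hif1a and Pgk1 and between P4ha1 and Bnip3. Every other neighbouring pair in this order was separated in all 6 libraries.

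**Figure D1:**
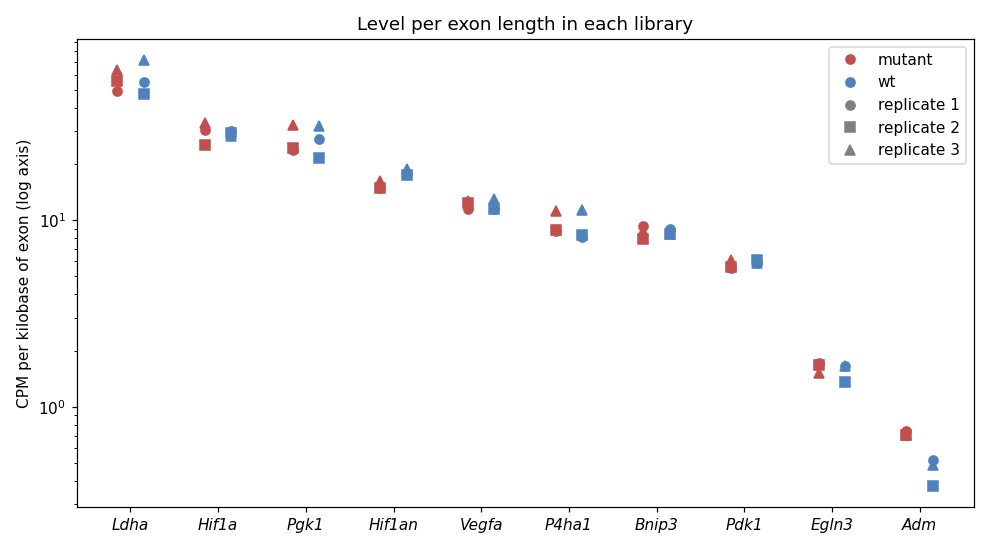
Level of each of the 10 genes per exon length (vertical axis, CPM per kilobase of exon, log scale), in order of their mean over 6 libraries; red points are mutant and blue points wt libraries, and the marker shape gives the replicate number. Mean levels ran down to 0.589 for Adm, with Ldha at 57.1.

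Of the HIF subunit and its regulators, the inhibitor gene Hif1an was lower in all 3 mutant libraries. Hif1an (ENSMUSG00000036450, GRCm38 chr19:44562850-44576274, forward strand) stood at 98.5, 98.4 and 107 CPM in mutant replicates 1, 2 and 3, against 117, 115 and 123 CPM in wt. All 3 mutant libraries lay below all 3 wt libraries, as was so for 3.7% of all tested genes. The means were 101 ± 4.82 CPM in mutants and 118 ± 4.43 CPM in wt (SD, n = 3 each), so that the log2 fold change, mutant over wt, was -0.22, or -14.4%. Between libraries with the same replicate number, mutant minus wt on the log2 scale, the difference was -0.25, -0.22 and -0.21. Since the gene was picked for its pattern, these values carry no test. Leaving out 1 library at a time gave log2 fold changes from -0.26 to -0.19, and correcting each library for GC content and transcript length gave -0.19. These refits use the libraries in which the gene was picked, so they are no independent support. The Hif1an gene does not overlap another tested gene.

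Hif1a itself (chr12:73901375-73947530, forward strand), the oxygen-regulated subunit, showed no such separation. It stood at 179.95, 148 and 196 CPM in mutants and at 177, 172 and 167 CPM in wt, so that the mutant libraries were both the highest and the lowest of the 6. The log2 fold change was 0.02 ± 0.11 (SE), with a 95% interval from -0.23 to 0.27 (adjusted p = 0.9999, edgeR's quasi-likelihood test). The low value belongs to mutant replicate 2, in which the tenth of genes with the lowest GC content lay at -0.33 on the log2 scale relative to the wt mean and the tenth with the highest at 0.24. The longest Hif1a transcript has a GC content of 41.3%, the lowest of the 10 genes. Without that library the log2 fold change was 0.13, and correction for GC content and transcript length gave 0.07. Whether GC content sets the low value was not tested.

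Egln3 (chr12:54178981-54203860, reverse strand) encodes a prolyl hydroxylase that is also a HIF target, so that its RNA marks HIF activity while its protein limits it. It was at 4.57, 4.45 and 4.06 CPM in mutants and at 4.41, 3.61 and 4.37 CPM in wt. The libraries of both genotypes interleaved, and the log2 fold change was 0.07 ± 0.16 (SE; 95% interval -0.28 to 0.43). Its paralogues Egln1 and Egln2 had -0.01 ± 0.09 and 0.17 ± 0.12, and Vhl, the substrate receptor of the ligase, had 0.07 ± 0.08. Among the partners, Arnt had -0.14 ± 0.09 and its neural paralogue Arnt2 -0.08 ± 0.07, with Arnt2 at 273, 284 and 272 CPM in mutants and 290, 297 and 288 CPM in wt. The Arnt2 libraries did not overlap, a state shared by 6.89% of all tested genes in either direction. The other oxygen-regulated subunit genes Epas1 and Hif3a had -0.04 ± 0.10 and -0.07 ± 0.12, and Cited2, whose product competes with HIF1A for the coactivators, 0.12 ± 0.22. Of the 16 other genes of this machinery, Hif1an left out, 0 passed the test in either direction, 8 lay above 0 and 8 below, and their median was 0.0055 on the log2 scale, beside -0.01 over all tested genes. Over all tested genes 47.5% lay above 0 and 52.5% below.

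**Figure D2:**
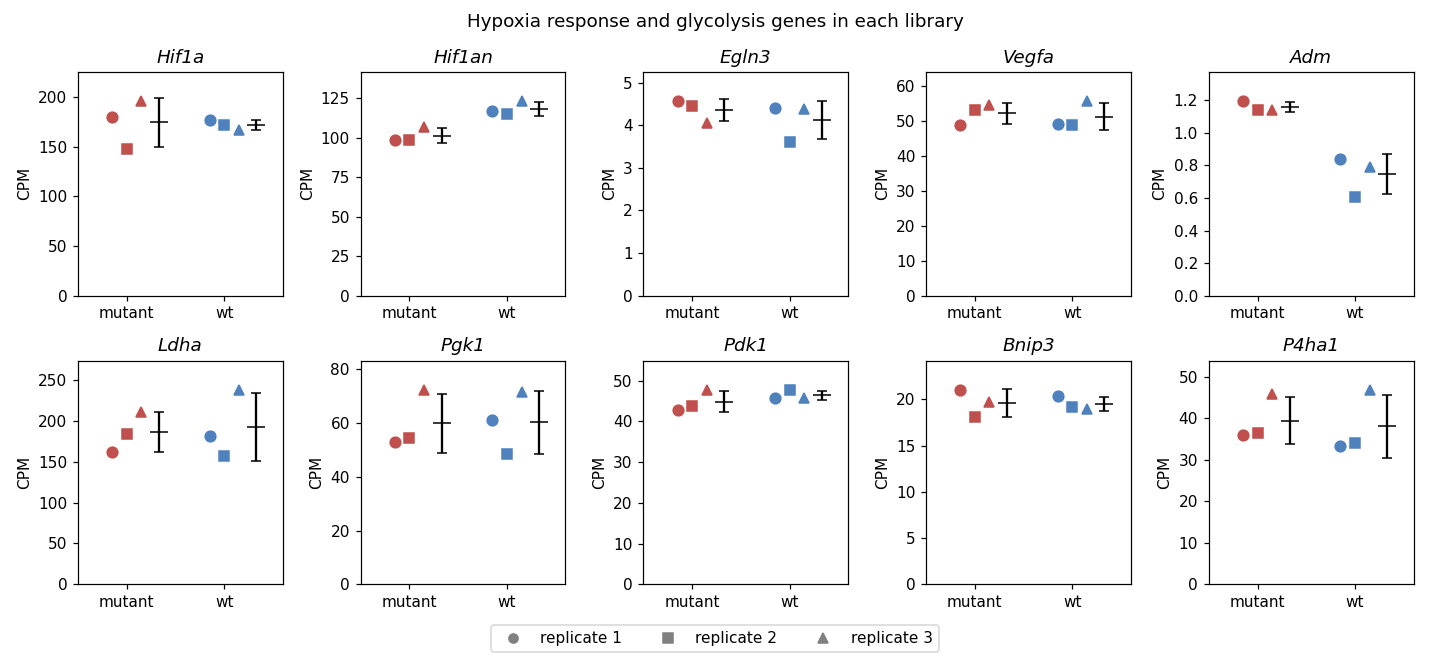
CPM of each gene (vertical axis, starting at 0) in each mutant and wt library; marker shapes give the replicate number, and the black bar is the mean with its SD (n = 3). Hif1an and Adm are the genes whose groups do not overlap, and in Hif1an, Vegfa, Ldha, Pgk1 and P4ha1 replicate 3 is highest in both genotypes.

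Of the secreted factors among the targets, Adm was the other gene picked for its pattern, and it was higher in mutants. Adm (chr7:110627661-110629820, forward strand) encodes adrenomedullin, a peptide that widens vessels and acts on endothelial cells. It stood at 1.20, 1.14 and 1.14 CPM in mutants and at 0.839, 0.608 and 0.791 CPM in wt. Every mutant library lay above every wt library, as in 3.19% of all tested genes. The means were 1.16 ± 0.0304 CPM in mutants and 0.746 ± 0.122 CPM in wt (SD, n = 3 each). The log2 fold change was 0.62, or 53.8%, again with no test. These values rest on few reads. The counts, not scaled for depth, were 34, 29 and 31 in mutants and 28, 15 and 30 in wt. Their exact 95% Poisson intervals cover counting error only. They ran from 23.5 to 47.5, from 19.4 to 41.6 and from 21.1 to 44.0 in mutant replicates 1, 2 and 3. In wt they ran from 18.6 to 40.5, from 8.40 to 24.7 and from 20.2 to 42.8, so that most of them overlapped widely between genotypes. Leaving out 1 library at a time gave log2 fold changes from 0.51 to 0.71, which is no independent support, since Adm was picked in these same libraries. An antisense gene, Gm28863, overlaps Adm but was too scarce to be tested.

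The receptor parts for adrenomedullin were measured as well: Calcrl had a log2 fold change of -0.07 ± 0.22 (SE) and Ramp2 0.16 ± 0.13. Since Adm acts on endothelium, the markers of that cell type are given beside it. Of 9 tested endothelial markers 8 lay above 0, with a median of 0.12, and their summed level was 226, 235 and 206 CPM in mutants and 214, 201 and 207 CPM in wt, so that the groups overlapped. Choroid plexus markers lay above 0 in 5 of 6, with a median of 0.14 and summed levels of 382, 459 and 316 CPM in mutants and 352, 350.1 and 302 CPM in wt. Over all tested genes 47.5% lay above 0. Most other marker lists leaned the same way: proliferating cell markers in 10 of 10, forebrain neuron markers in 9 of 11 and microglia markers in 7 of 9. Radial glia markers lay above 0 in 6 of 8, erythroid markers in 6 of 9, and mural and meningeal markers in 4 of 10. The part of any of these cell types in the Adm difference was not tested. In whole tissue, a change in the number of cells of a type and a change in RNA per cell cannot be told apart.

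Vegfa (chr17:46016993-46032369, reverse strand), the other secreted target, was at 48.8, 53.1 and 54.4 CPM in mutants and at 48.9, 48.8 and 55.6 CPM in wt. The 2 genotypes covered nearly the same range, with a log2 fold change of 0.03 ± 0.09 (SE) and a 95% interval of -12.0% to 17.8%. Between libraries of the same number the log2 difference, mutant minus wt, was -0.0024, 0.12 and -0.03. The VEGF receptors mark the cells that can respond. Kdr, the main signalling receptor, had -0.02 ± 0.08, the decoy receptor Flt1 0.02 ± 0.09, and Nrp1, a coreceptor also used by semaphorins in axons, -0.04 ± 0.15. Of the 7 VEGF and adrenomedullin receptor genes, 0 passed the test.

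The glycolytic targets Ldha and Pgk1 varied more between embryos than between genotypes. Ldha (chr7:46841475-46855627, forward strand) was at 162, 184 and 211 CPM in mutants and at 181, 157 and 238 CPM in wt. The log2 fold change was -0.05 ± 0.16 (SE; 95% interval -0.41 to 0.31). Pgk1 (chrX:106187100-106203699, forward strand), the phosphoglycerate kinase gene, was at 53.0, 54.4 and 72.4 CPM in mutants and at 61.0, 48.4 and 71.7 CPM in wt, a log2 fold change of -0.01 ± 0.17 (SE; 95% interval -0.39 to 0.36). In both genes replicate 3 held the highest value of its genotype. Between libraries of replicates 1, 2 and 3 the log2 difference, mutant minus wt, was -0.16, 0.22 and -0.17 for Ldha and -0.20, 0.17 and 0.01 for Pgk1, so its sign changed between replicate numbers. Both have processed copies elsewhere in the genome, so part of their reads may be lost to or gained from such copies.

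Pdk1 (chr2:71873224-71903858, forward strand) encodes a kinase that switches off pyruvate dehydrogenase and so limits the use of pyruvate in the mitochondrion. It had the smallest standard error of the HIF targets among the 10 genes, at 42.9, 43.8 and 47.7 CPM in mutants and 45.7, 47.7 and 45.8 CPM in wt, with a log2 fold change of -0.05 ± 0.08 (SE; 95% interval -0.24 to 0.14). Its paralogues Pdk2, Pdk3 and Pdk4 had -0.10 ± 0.21, 0.07 ± 0.13 and 0.22 ± 0.28, and Pdha1, the subunit these kinases phosphorylate, had 0.03 ± 0.09. Of the 9 genes of the dehydrogenase and its kinases and phosphatases, 0 passed the test.

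Bnip3 (chr7:138890836-138909519, reverse strand) encodes an outer membrane protein that marks mitochondria for removal. It was at 21.02, 18.0 and 19.7 CPM in mutants and 20.4, 19.2 and 19.0 CPM in wt, the smallest genotype difference of the 10, with a log2 fold change of 0.01 ± 0.11 (SE; 95% interval -0.23 to 0.24). Its relative Bnip3l had -0.03 ± 0.12. P4ha1 (chr10:59323296-59373304, forward strand) encodes a catalytic subunit of the prolyl hydroxylase that stabilises collagen, an enzyme distinct from the EGLN group. It was at 35.8, 36.4 and 45.8 CPM in mutants and at 33.2, 34.0 and 46.8 CPM in wt, with replicate 3 again highest in both. The log2 difference between same-numbered libraries, mutant minus wt, was 0.11, 0.10 and -0.03. The P4ha1 log2 fold change was 0.05 ± 0.16 (SE, 95% interval -0.31 to 0.40). The other catalytic subunits P4ha2 and P4ha3 had -0.06 ± 0.14 and 0.003 ± 0.19, and the shared subunit P4hb had 0.04 ± 0.10.

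Of the 8 genes that were not picked for their pattern, 0 passed the test, against 0% of all tested genes, and 0 had an unadjusted p under 0.05 (edgeR's quasi-likelihood test; the smallest was 0.558). Their log2 fold changes ran from -0.05 to 0.07, with 5 above 0 and 3 below and a median of 0.01, and in none of the 8 were the genotypes separated. As the edgeR test was conservative, the lack of small p-values here and in the wider lists does not show that these genes were unchanged. The 95% intervals of the 8 genes reached down to -0.41 for Ldha and up to 0.43 for Egln3, and were narrowest for Pdk1, from -0.24 to 0.14. Of the other 69 tested genes of the wider pathway lists 0 passed, 0 had an unadjusted p under 0.05, 36 lay above 0 and 33 below, the median was 0.02, and the groups were separated in 3 of them (4.35%, beside 6.89% of all tested genes).

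**Figure D3:**
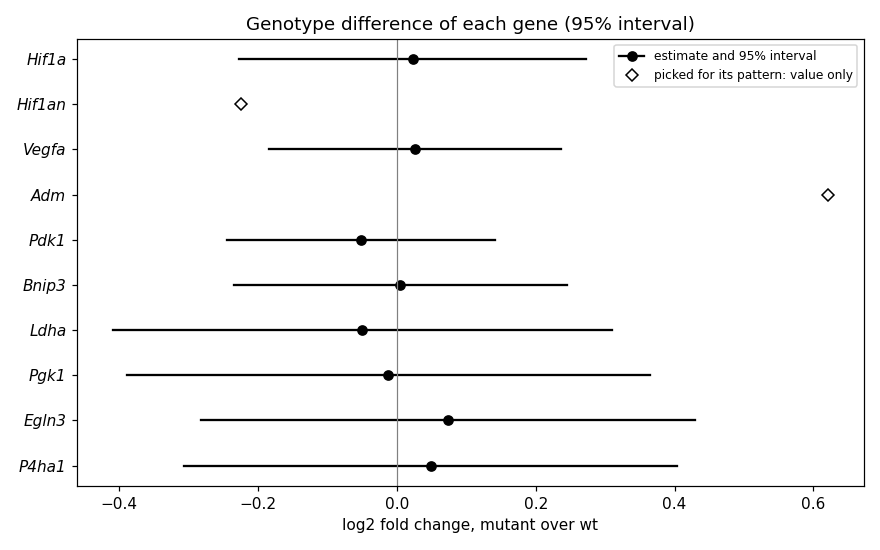
Log2 fold change, mutant over wt, of each gene (horizontal axis) with its 95% interval from the fit of all 6 libraries; Hif1an and Adm, picked for their pattern, are shown as open diamonds without an interval. The intervals of the other 8 genes all include 0.

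Within the wider list of HIF targets, the glucose transporter gene Slc2a1 had a log2 fold change of 0.04 ± 0.14 (SE) and its neuronal relative Slc2a3 0.02 ± 0.12. Ndrg1, Ddit4, Kdm3a and Mxi1, targets used as read-outs of HIF in many cells, had -0.07 ± 0.26, -0.01 ± 0.15, -0.08 ± 0.15 and -0.02 ± 0.09. Of the 29 tested targets other than Adm, 0 passed the test, 13 had values above 0 and 16 below (median -0.01). Their values ran from -0.13 for Stc2 to 0.34 ± 0.19 for Ankrd37, named here after their values were seen. Between libraries of the same number Ankrd37 was higher in mutants, by 0.17, 0.50 and 0.32, though the ranges of the genotypes overlapped. Ankrd37 had 91 to 169 reads per library and overlaps the tested genes Lrp2bp and Ufsp2 on the opposite strand. Part of its counts may come from these neighbours. Car9, a carbonic anhydrase gene induced strongly by HIF in many tumours, had too few reads to be tested, with 6, 3 and 7 reads in mutants and 4, 2 and 1 in wt. Of the 21 genes of glycolysis and lactate transport 0 passed, 13 lay above 0 and 8 below, and the median was 0.03. Aldoa, Aldoc, Gapdh, Eno1, Pkm, Ldhb and Slc16a1 had values of 0.11 ± 0.11, 0.10 ± 0.16, 0.06 ± 0.13, -0.07 ± 0.12, 0.05 ± 0.17, -0.04 ± 0.10 and 0.03 ± 0.11.

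Several of the 10 genes varied with the replicate 3 libraries, in both genotypes. P4ha1 was 0.34 log2 units higher in mutant replicate 3 than in the mean of mutant replicates 1 and 2, and 0.48 higher in wt on the same scale. Pgk1 was 0.43 higher in mutants and 0.40 higher in wt, and Ldha 0.29 and 0.49. Averaged over both genotypes, these 3 genes lay above 92.8% to 93.7% of all tested genes in this difference. Replicate 3 was the highest library of both genotypes in 5 of the 10 genes (Hif1an, Vegfa, Ldha, Pgk1 and P4ha1), as in 21.4% of all tested genes. The targets did not move as 1 block: Bnip3 had 0.02 in mutants and -0.06 in wt, Egln3 -0.15 and 0.13, Pdk1 0.14 and -0.03, and Adm -0.03 and 0.13. No test was made of this difference, since the libraries were seen to stand apart in these same data.

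In the glycolysis list the replicate 3 libraries differed by isoform for some of the enzymes. Replicate 3 was highest in both genotypes in 13 of the 21 genes and lowest in both in 5, against 21.4% and 20.9% of all tested genes. Among hexokinases, which start glycolysis, Hk2 was at 17.0, 17.8 and 30.7 CPM in mutant replicates 1, 2 and 3 and at 17.4, 16.9 and 35.0 CPM in wt. Hk1, the form typical of mature brain, was at 109.7, 126 and 77.6 CPM in mutants and 104, 116 and 86.9 CPM in wt, so the isoforms ran opposite ways. The same held for phosphofructokinases: Pfkl was at 98.2, 114 and 122.5 CPM in mutants and 99.6, 88.3 and 122.4 CPM in wt, while Pfkp was at 249, 259 and 143 CPM in mutants and 257, 255 and 149.8 CPM in wt. The lactate exporter Slc16a3 was at 4.15, 4.61 and 9.11 CPM in mutants and at 4.29, 3.73 and 9.04 CPM in wt. Its relative Slc16a1 was also highest in replicate 3 of both genotypes. Aldoc and Ldha were highest there too, while Aldoa and Ldhb were neither highest nor lowest in both genotypes. Eno2, the neuronal enolase, was at 29.6, 33.2 and 18.9 CPM in mutants and 28.5, 29.3 and 20.5 CPM in wt. Slc2a3 and Pfkm were the remaining genes lowest in replicate 3 of both genotypes. Hk1, Pfkm, Pfkp and Aldoa overlap tested genes on the opposite strand (Hk1os, Senp1, Pitrm1 and Fam57b). Pfkm also overlaps Gm26513 on its own strand, and Slc16a1 overlaps Gm43581 and Gm43585 on its own strand. Part of the counts of these genes may come from such neighbours.

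**Figure D4:**
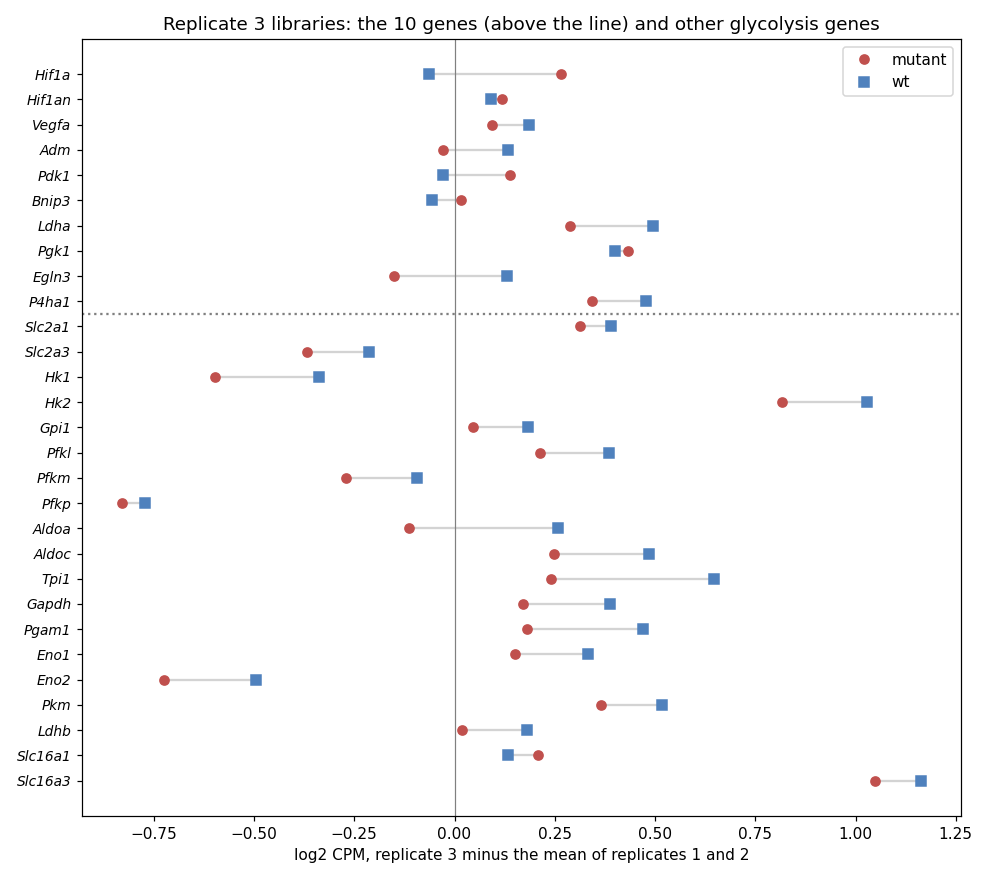
Difference in log2 CPM between replicate 3 and the mean of replicates 1 and 2 (horizontal axis) within mutants (red circles) and within wt (blue squares), for the 10 genes above the dotted line and the other glycolysis genes below it. Ldha, Pgk1 and P4ha1 lie at 0.29 or more in both genotypes, Hk2 and Slc16a3 at 0.82 or more, and Pfkp at -0.77 or less.

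Cell type markers also differed in the replicate 3 libraries, in directions that depended on the list. The 10 proliferating cell markers were all highest in replicate 3 of both genotypes, with a median difference of 0.70 in mutants and 0.70 in wt. The 8 radial glia markers had medians of 0.34 and 0.35, with 4 highest and 2 lowest in both genotypes. Of 10 mural and meningeal markers, 8 were lowest in both. Medians in mutants and wt were -0.37 and -0.18 for microglia markers and -0.55 and -0.10 for choroid plexus markers. The 11 forebrain neuron markers had medians of -0.03 and -0.08, with 1 highest and 2 lowest in both. The erythroid markers split: of 9 genes, 4 were highest and 4 lowest in replicate 3 of both genotypes, with medians of -0.00063 in mutants and -0.25 in wt, and their summed level was 621, 666 and 829 CPM in mutant replicates 1, 2 and 3 and 596, 602 and 749 CPM in wt. The embryonic globin Hbb-y differed by 3.07 log2 units in mutants and 3.22 in wt, while the adult globin Hbb-bs differed by -0.42 and -0.58. Their part in the differences of Ldha, Pgk1 and P4ha1 was not tested.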

How the data were processed

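The deposited table holds raw read counts per Ensembl gene, whole numbers with 1 column per library. Per the submitters' processing notes and the series' design text, reads were demultiplexed with bcl2fastq 2.17.1.14, aligned to mouse GRCm38 release 93 with HISAT2, handled with SAMtools 1.9 and counted by the authors with HTSeq 0.9.1. The sources used here do not give its strand setting. Per the labels' protocols the kit removed ribosomal RNA and marked the strand, while the molecule is labelled polyA RNA. Nothing says whether the embryos shared litters, so p-values measure the spread between these samples only.

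Symbols, positions, exon lengths and GC content came from GENCODE M21 (GRCm38), which matched 32888 of 33084 identifiers. Genes were kept by filterByExpr (count minimum 10, total 15), which left 19616, the 10 genes among them. Counts were scaled by TMM and tested with edgeR 4.0.16 (quasi-likelihood F test, robust, no covariate, Benjamini-Hochberg over all tested genes, threshold 0.05), after a check on simulated counts. Log2 CPM per library used a prior count of 2. Standard errors are the log2 fold change over the square root of F, and levels per length are CPM per kilobase of merged exons. DESeq2 1.42.0 and limma 3.58.1 served as alternatives (R 4.3.3), and matplotlib 3.10.9 drew the figures. The genes, the lists and the genes named from them, given by fixed names, were chosen with earlier results of these data known.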

Additional observations from a re-analysis of the deposited data

How the results depend on the processing

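Each of the 10 genes and Dyrk1a was refitted under 15 alternatives, which gave 165 values. None of the values that were tested passed the adjusted threshold, and 139 kept their sign or, for Hif1an and Adm, stayed within 1 SD of the reported value. The other 26 changed sign, all in genes reported within 0.08 log2 units of 0. For Hif1an and Adm the stable sign is no support, since both were picked in these same libraries. With only the 4 libraries of replicates 1 and 2 the log2 fold change was -0.086 for Hif1a, -0.014 for Bnip3 and 0.036 for Ldha. In limma-voom with sample weights it was -0.014 for Hif1a and 0.047 for Dyrk1a. With the GC content and length trend removed Dyrk1a had 0.024, and with the replicate block added 0.023. Leaving out 1 library at a time, it ranged from -0.066 to 0.13 for Hif1a, from -0.0053 to 0.0999 for Vegfa, from -0.044 to 0.061 for Bnip3, from -0.18 to 0.14 for Ldha, from -0.17 to 0.14 for Pgk1, from -0.010 to 0.12 for Egln3, from -0.073 to 0.24 for P4ha1 and from -0.053 to 0.052 for Dyrk1a. The cause was not tested.

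The number of genes called was 0 in every alternative except the 4 libraries of replicates 1 and 2, where 3 genes were higher in mutants: Hist1h2ag, Pisd-ps1 and Tmem181b-ps (chosen after their values were seen; none belongs to the hypoxia or glycolysis lists). The genotypes share replicate numbers, but no label says that a number marks a litter or a batch. Deviations from the group mean correlated at 0.241, 0.0711 and 0.355 between same-numbered libraries 1, 2 and 3, and mutant replicate 1 correlated best with wt replicate 2 (0.348), so the numbers were not taken as pairs. With the replicate block 0 genes were called, with 765 at an unadjusted p under 0.05 against 376. The block lowered the SE from 0.17 to 0.09 for Pgk1, from 0.16 to 0.08 for P4ha1 and from 0.16 to 0.09 for Ldha. Depth limits Adm most, at 15 to 34 reads per library.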
